A study of Mus musculus with 9 samples.

Results

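Of the 124860 regions of accessible chromatin measured in the mouse mammary gland, 866 were stably open in oestrogen receptor negative (ER-) luminal cells. They were selected on their ATAC-seq values at puberty and in adults. On the scale of log2(value + 1), the ER- luminal library had to lie at least 2 above both the basal and the ER+ luminal library of the same stage, at both stages, with a value of at least 20. A difference of 2 on this scale is given below as 4-fold. The pregnancy libraries played no part in the choice, so pregnancy is where the regions can be looked at afresh.

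The series covers 9 libraries, 1 for each cell type and stage. The groups are basal cells, ER- luminal cells and ER+ luminal cells, each from pubertal, adult and mid-pregnant glands. Every group carries the genotype ERrtTA/TetOCre/rosaYFP, which joins a transactivator whose name refers to the oestrogen receptor, a Cre recombinase under a Tet operator and a YFP reporter at the Rosa locus. Whether these transgenes were induced, how many animals were pooled, their ages and which surface markers the sort used are not stated in the labels. Regions are named by a running number only, so the sorted cell types could not be checked against marker genes, and no gene, position or sequence is given for any region.

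Mammary ducts have an outer contractile layer of basal cells and an inner lining of luminal cells. ER+ luminal cells sense oestrogen and pass the signal on to their neighbours, while ER- luminal cells hold progenitors of the alveoli, which in pregnancy grow and prepare to make milk. ATAC-seq marks DNA that the Tn5 transposase can reach. Regions reachable in 1 cell type and closed in its neighbours are often enhancers that bear on the identity of that type.

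The pregnancy libraries were the shallowest, with 2186941 to 3418164 reads in regions, where the other 6 held 6679907 to 11328189. Their values also had the narrowest range: over all regions, the 90th percentile was 16.3 to 35.0 times the 10th, against 39.8 to 88.3 times in the others. The 10th percentile was 3.03 to 5.09 units in pregnancy, where 1 read was worth 1.52 to 2.20 units, so these ratios rest on few reads. The ER+ luminal pregnancy library stood apart from its cell type. Over all regions its Pearson r with ER- luminal libraries was 0.77 in pregnancy, 0.74 at puberty and 0.73 in adults. With its own type it was lower, 0.71 at puberty and 0.70 in adults. With basal libraries it was 0.72 at puberty, 0.68 in adults and 0.69 in pregnancy. All ER+ luminal values in pregnancy given below rest on this library. The main pregnancy counts and medians are therefore also given against basal cells alone.

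At the stages used for the choice, the 866 regions were bright in ER- luminal cells and dim elsewhere by construction. Their median deposited value in ER- luminal cells was 55.9 units at puberty and 60.9 in adults. In basal cells the medians were 7.12 and 8.68, and in ER+ luminal cells 5.78 and 4.28, at the same stages. The interquartile range was 37.3 to 89.6 in ER- luminal cells at puberty and 41.6 to 89.9 in adults. These values chose the regions and support nothing further.

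In pregnancy the order of the cell types was kept while the gap between them was much smaller. The median was 45.5 units in ER- luminal cells, 19.8 in basal cells and 18.6 in ER+ luminal cells. The interquartile ranges were 27.3 to 74.3, 13.2 to 30.8 and 11.9 to 28.8, so those of basal and ER+ luminal cells reached into that of ER- luminal cells. With 1 library per cell type and stage there is no replicate and no test for any of these differences. A bulk library also cannot tell lower accessibility per cell from fewer cells with the region open.

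**Figure D1:**
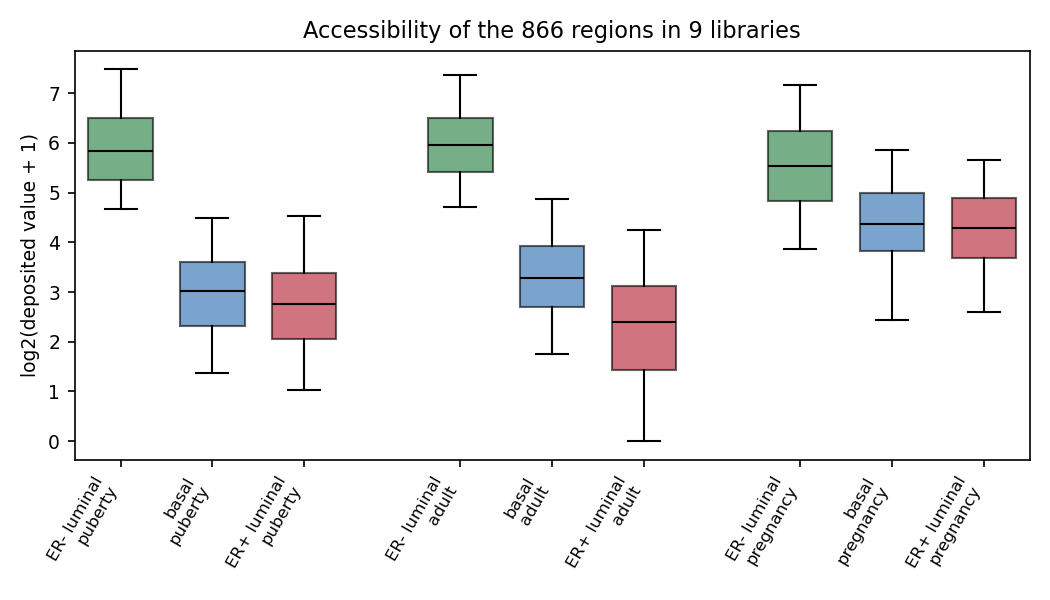
Box plots of log2(deposited value + 1) for the 866 regions in each of the 9 libraries (line, median; box, interquartile range; whiskers, 5th to 95th percentile). ER- luminal boxes stand apart at puberty and in adults, where the regions were chosen; in pregnancy the basal and ER+ luminal medians reach 19.8 and 18.6 units against 45.5 in ER- luminal cells.

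The share of a library's reads in regions, which does not use the deposited scaling but divides by the library's total, showed the same order. The 866 regions took 1.04% of all reads in regions in the ER- luminal puberty library and 1.16% in the adult one, and 0.942% in pregnancy (exact 95% binomial interval 0.932 to 0.953). In basal cells the share was 0.128% at puberty and 0.155% in adults, against 0.439% in pregnancy (interval 0.430 to 0.448). In ER+ luminal cells it was 0.113% and 0.0919%, against 0.435% in pregnancy (interval 0.427 to 0.443). The ER- luminal share was thus 8.11 times the basal share at puberty, 7.47 times in adults and 2.15 times in pregnancy. Against ER+ luminal cells the ratio was 9.13, 12.6 and 2.17 at the same stages. The puberty and adult libraries chose the regions, so large ratios there follow from the choice and support nothing further. The intervals cover counting error only, since copies made by PCR are not independent molecules.

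Ranks within a library showed the same order, which at puberty and in adults again follows from the choice. The median region of the 866 stood at percentile 79.9 of all regions in ER- luminal cells at puberty, 81.2 in adults and 78.6 in pregnancy, so its rank there hardly differed by stage. In basal cells the median rank was percentile 27.9 at puberty, 34.7 in adults and 55.3 in pregnancy. The ER+ luminal ranks were percentile 27.6, 20.2 and 53.6. Ranks do not depend on any scaling that keeps the order of values within a library.

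The smaller gap in pregnancy came with higher basal and ER+ luminal values more than with lower ER- luminal ones. Against the mean of puberty and adult on the log2 scale, the median difference in pregnancy was -0.36 for ER- luminal, 1.25 for basal and 1.74 for ER+ luminal libraries. Over all 124860 regions the corresponding medians were 0.07, 0.04 and -0.03, near 0. The interquartile range of the 866 regions ran from -0.86 to 0.04 for ER- luminal, from 0.69 to 1.75 for basal and from 1.10 to 2.38 for ER+ luminal libraries. The mean value of the 866 regions in pregnancy was 0.77 times the adult mean for ER- luminal, 2.16 times for basal and 3.71 times for ER+ luminal libraries. Because the choice favoured high ER- luminal and low other values at the earlier stages, the choice favours these directions, and its part in the differences was not measured. The ER- luminal median was -0.19 after quantile normalization, and -0.049 for regions chosen in adults alone. The ER+ luminal adult values of the 866 regions were near the floor, with a median of 5 reads. Of these regions, 321 had 3 reads or fewer there and 54 had none. At puberty the ER+ luminal median was 11 reads, with 86 and 6 such regions. Basal medians were 9 reads at puberty and 11 in adults, with 106 and 59 regions at 3 reads or fewer.

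Counted region by region, 403 of the 866 (46.5%) were at least 2-fold higher in pregnancy than at both earlier stages in basal cells, where 9.32% of all regions were. In ER+ luminal cells it was 576 (66.5%), against 18.8% of all regions. In ER- luminal cells only merged117622, 1 region of the 866 (0.115%), lay at least 2-fold above both earlier stages, against 8.59% of all regions. At least 2-fold below both were 131 in ER- luminal cells (15.1%, against 6.82% of all regions), 8 in basal (0.924%, against 7.32%) and 2 in ER+ luminal cells (0.231%, against 15.4%). The same libraries at puberty and in adults served the choice and these counts, so nothing further is read from them.

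**Figure D2:**
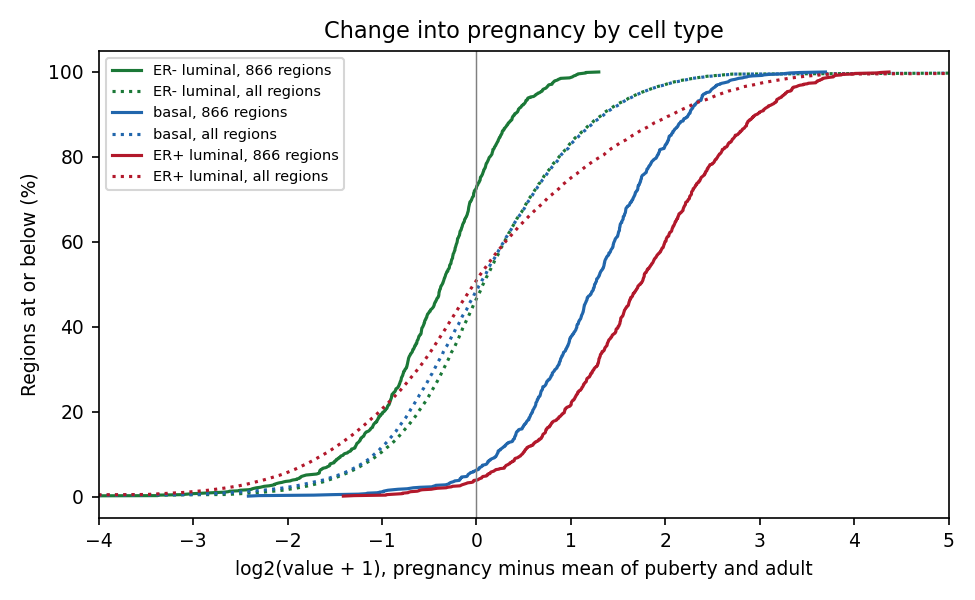
Cumulative share of regions (vertical axis, %) by the difference of log2(value + 1) between pregnancy and the mean of puberty and adult (horizontal axis, drawn from -4 to 5), for the 866 regions (solid) and all regions (dotted) in each cell type. The solid curves cross 50% at -0.36 (ER- luminal), 1.25 (basal) and 1.74 (ER+ luminal), while the dotted curves cross close to 0.

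ER- luminal cells still had the highest pregnancy value of the 3 cell types in 776 of the 866 regions (89.6%), against 33.0% of all regions. They exceeded both other types at least 2-fold in 384 regions (44.3%), against 4.42% of all regions. At least 4-fold, the size required at each earlier stage, was reached in 18 regions (2.08%), against 0.304% of all regions. That count was 6 with a pseudocount of 4 in place of 1, where 0.0392% of all regions reached 4-fold, and 55 after quantile normalization, where 0.786% did. The median difference between ER- luminal cells and the higher of the other 2 types, called the margin below, was 0.91 in pregnancy and -0.42 over all regions. At the stages of the choice it was 2.58 and 2.51.

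The difference was small from each other cell type taken alone. Over basal cells the median pregnancy difference was 1.14, and 92 regions (10.6%, against 3.71% of all regions) were at least 4-fold higher in ER- luminal cells. Against basal cells alone, 516 regions (59.6%) were at least 2-fold higher, where 15.4% of all regions were, and 812 (93.8%) were higher at all, where 50.4% were. Over ER+ luminal cells it was 1.23, with 118 such regions (13.6%, against 3.07%). At the 2-fold level, 132 regions (15.2%, against 10.9% of all regions) exceeded basal cells only, 172 (19.9%, against 10.7%) exceeded ER+ luminal cells only and 178 (20.6%, against 73.9%) exceeded neither. In pregnancy basal was the higher of the other 2 types in 473 of the 866 regions (54.6%, against 50.1% of all regions). It was so in 541 at puberty (62.5%, against 51.3%) and 690 in adults (79.7%, against 50.0%), the stages that served the choice.

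**Figure D3:**
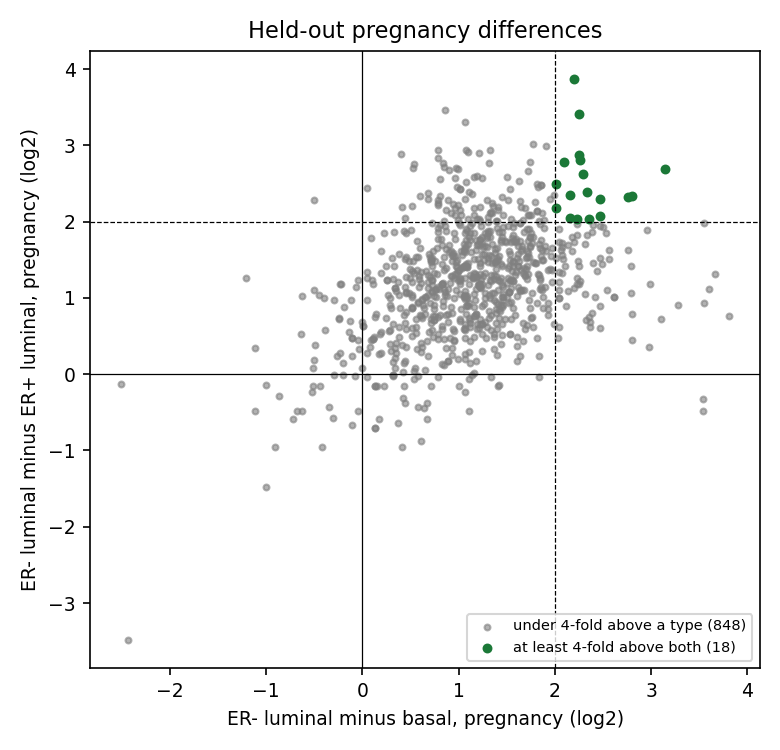
Each point is 1 of the 866 regions, placed by the pregnancy log2 difference of ER- luminal from basal (horizontal) and from ER+ luminal cells (vertical); dashed lines mark 2, which is 4-fold. Most points lie right of and above 0 but short of the dashed lines, and the 18 green points are beyond both.

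How well the distinct state carried over was compared between an adult and a pregnancy read-out when neither had served the choice. With the rule applied to puberty alone, 2102 regions were chosen. In adults 903 of these (43.0%) were at least 4-fold above both other types, against 2.75% of all regions, and in pregnancy 28 (1.33%), against 0.304%. Their median margin was 1.86 in adults and 0.70 in pregnancy. With the rule applied to adults alone, 956 of 2433 regions (39.3%, against 2.18% of all regions) met it at puberty and 48 (1.97%) in pregnancy, with median margins of 1.71 and 0.74. The same regions were also read against basal cells alone, although the ER+ luminal libraries had still served their choice. Those chosen at puberty were at least 4-fold higher than basal cells in 1050 cases in adults (50.0%, against 5.87% of all regions). In pregnancy it was 162 (7.71%, against 3.71%). Those chosen in adults were at least 4-fold higher in 1104 cases at puberty (45.4%, against 5.85%) and in 229 in pregnancy (9.41%).

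The same read-out was taken at other scalings, given the lower depth and narrower range in pregnancy. The regions were still those chosen on the deposited values. Thinned to equal depth, the regions chosen at puberty reached 4-fold in 42.4% of cases in adults (against 3.51% of all regions) and 2.09% in pregnancy. After quantile normalization, which gives every library the same distribution, the shares were 42.2% (against 2.42%) and 4.04%. Regions chosen in adults then reached it in 37.9% of cases at puberty (against 2.01%) and 6.21% in pregnancy. Both ways the pregnancy share of all regions also was higher, at 0.407% and 0.786%. Other differences between the mice or sorts of each stage cannot be told apart from stage.

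The 18 regions that were at least 4-fold above both other types in pregnancy had moderate values. Their ER- luminal values in pregnancy ran from 13.7 to 109 with a median of 54.6, while basal values ran from 2.20 to 26.4 with a median of 9.90. ER+ luminal values there ran from 0 to 23.7 with a median of 8.48. Averaged over puberty and adult, their median ER- luminal value was 47.4, against 58.5 over the 866 regions. In 10 of the 18 the ER- luminal value in pregnancy lay above its mean of the earlier stages, against 235 of the 866. Over all regions this difference passed 0 between percentiles 46.5 and 47, so the share above 0 was close to that of the 18. The pregnancy values picked these 18 out, so their margins and this count are a description.

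Region merged77420 had the largest pregnancy margin, 2.69. Its ER- luminal value was 20.1 at puberty, 23.8 in adults and 27.3 in pregnancy. Basal values were 1.58, 3.16 and 2.20, and ER+ luminal values 1.58, 2.57 and 3.39, so at every stage the ER- luminal library stood clear of both others. The pregnancy values rest on 18, 1 and 2 reads, and the ratio to basal of 12.4 has an exact 95% counting interval of 1.96 to 517.

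Regions merged88084, merged25104, merged89825 and merged49854 followed, with margins of 2.34, 2.34, 2.32 and 2.29. The brightest of them was merged89825, with 174 at puberty, 84.7 in adults and 80.4 in pregnancy in ER- luminal cells. Its basal values were 7.91, 14.2 and 11.0, and its ER+ luminal values 9.99, 0 and 15.3. From 53 and 5 reads, the ratio to basal in pregnancy was 7.31 (exact 95% counting interval 2.94 to 23.4). Region merged25104 had 73.8, 72.8 and 48.5 in ER- luminal cells, against 8.80 in basal and 8.48 in ER+ luminal cells in pregnancy. In merged88084 and merged49854 the pregnancy ER- luminal values were 21.2 and 28.8, from 14 and 19 reads. Their basal values rested on 1 and 2 reads and their ER+ luminal values on 2 and 3. The exact 95% counting intervals of their ratios to basal were wide, 1.47 to 408 and 1.58 to 58.0.

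At the other end, 90 regions had a pregnancy value below that of another type. Basal cells were highest in 46 of them and ER+ luminal cells in 44. Most were near ties: their median margin was -0.30, 7 lay at least 2-fold below the highest type and 2 at least 4-fold. Their ER- luminal values in pregnancy rested on a median of 11 reads, against 30 over the 866 regions.

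The 5 lowest margins belonged to merged109023, merged29256, merged47618, merged48066 and merged45618. Region merged109023 had 38.7 at puberty and 26.0 in adults in ER- luminal cells and no read in pregnancy. A count of 0 there allows up to 3 reads, or 4.55 units, and against that floor the value was at least 8.51-fold lower than at puberty and at least 5.71-fold lower than in adults. The exact 95% counting interval of its ratio to adults, which also covers the counting error of the adult value, reached up to 0.227. In pregnancy its basal value was 4.40 and its ER+ luminal value 10.2, from 2 and 6 reads. It was the only one of the 866 regions with no ER- luminal read in pregnancy.

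Region merged29256 had 51.6, 31.9 and 3.03 in ER- luminal cells, and its basal value was 7.12, 6.31 and 22.0 through the same stages. From 2 and 10 reads, the pregnancy ratio of ER- luminal to basal was 0.138 (exact 95% counting interval 0.0147 to 0.647). Region merged48066 was also highest in basal cells in pregnancy, with 33.0 against 13.7 in ER- luminal cells, a ratio of 0.414 (exact 95% counting interval 0.160 to 1.01). The intervals of merged47618 and merged45618 against their highest other type reached above 1, to 1.10 and 2.13. ER- luminal values also lay furthest below the lower of their earlier values in merged109023, merged29256 and merged45618. The pregnancy values picked out the regions with the lowest margins, and their intervals make no allowance for that.

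The brightest regions kept a clear lead. Region merged76702 had 410.0 at puberty, 409 in adults and 281 in pregnancy in ER- luminal cells. Its basal values were 15.8, 69.4 and 74.8, and its ER+ luminal values 17.9, 8.55 and 86.5. From 185 and 34 reads, the pregnancy ratio to basal was 3.75 (exact 95% counting interval 2.59 to 5.58), and to ER+ luminal cells it was 3.25 (2.37 to 4.52). In merged82306 the ER- luminal values were 482, 334 and 250, and in merged32203 they were 401, 339 and 214. Their pregnancy ratios to the higher of the other types were 2.99 (exact 95% counting interval 2.09 to 4.38) and 2.43 (1.70 to 3.55), so the intervals of all 3 lay above 1.

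The ER- luminal value in pregnancy lay furthest above the earlier ones in 3 regions. Region merged117622 had 35.1 at puberty, 34.2 in adults and 86.5 in pregnancy, and the ratio of pregnancy to adult was 2.53 (exact 95% counting interval 1.69 to 3.82). Its basal values were 3.17, 2.37 and 17.6 and its ER+ luminal values 7.89, 3.42 and 23.7, so the other types were higher in pregnancy as well. Region merged21103 had 35.1, 38.6 and 77.4 in ER- luminal cells, with 24.2 in basal and 35.6 in ER+ luminal cells in pregnancy. Region merged78384 had 48.0, 55.0 and 109, with 30.8 and 22.0 in basal and ER+ luminal cells. The pregnancy values picked these 3 regions out, and the interval given makes no allowance for that.

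Typical of the 866 were the 3 regions nearest to the median pregnancy margin. Region merged40666 had 132, 111 and 74.3 in ER- luminal cells, with basal values of 17.4, 22.1 and 26.4 and ER+ luminal values of 19.5, 10.3 and 39.0. In merged94291 the ER- luminal values were 83.2, 100.3 and 71.3 and the pregnancy values of basal and ER+ luminal cells 37.4 and 30.5. Region merged106816 had 33.0, 65.4 and 42.5 in ER- luminal cells and 15.4 and 22.0 in the others in pregnancy. In each of them the ER- luminal value in pregnancy was below the adult one, and both other types were higher than at the earlier stages.

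**Figure D4:**
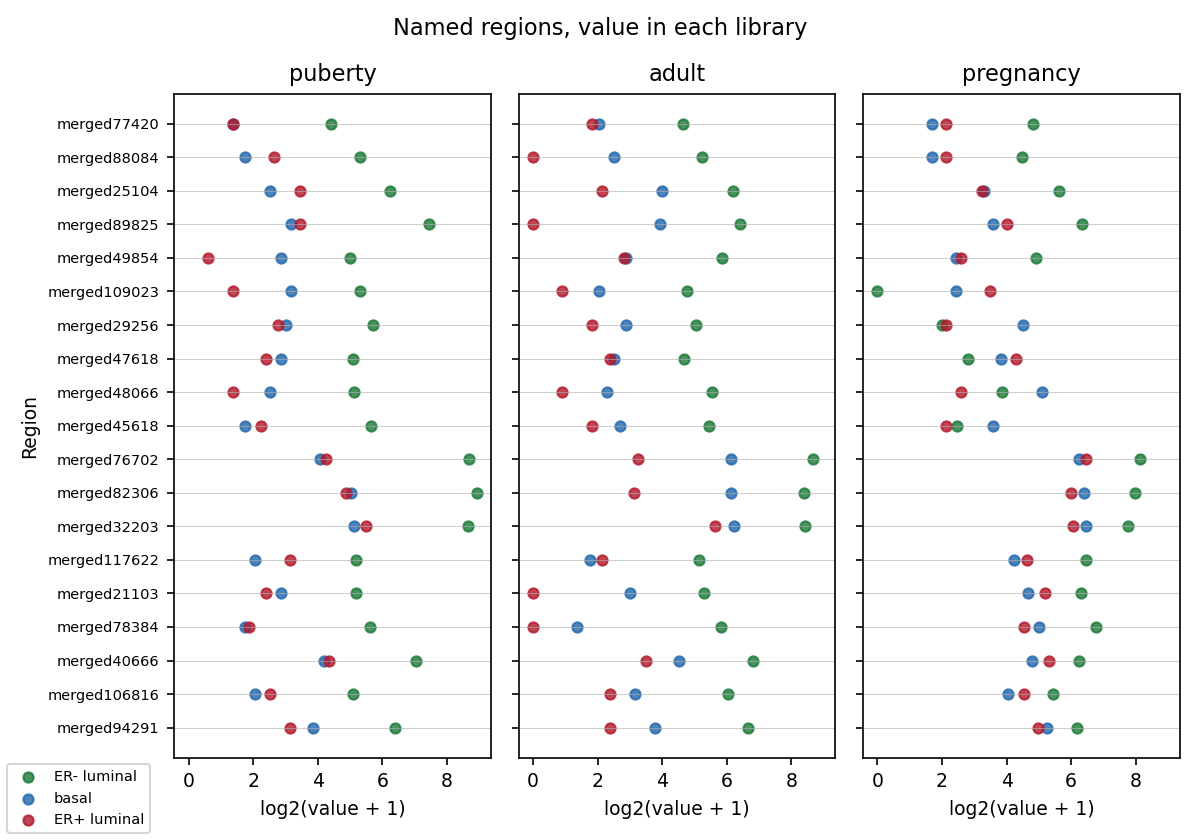
Values as log2(value + 1) of 19 named regions at each stage, with 1 point per library. In the first 5 rows the ER- luminal point stays clear of the others in pregnancy, in the next 5 it lies below another type, and in the rest the basal and ER+ luminal points move toward it.

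At the edge of the rule, the pair of regions just inside were merged16541 and merged42226, both with a smallest choice margin of 2.00214, and the pair just outside were merged30064 and merged9231, with 1.99912 and 1.99869. In pregnancy the margins of the first pair were 0.33 and -0.15 and those of the second 1.21 and 1.13. These rest on few reads, in merged9231 on 13 ER- luminal, 3 basal and 5 ER+ luminal ones. Over all regions with a smallest choice margin of 2 to 2.5 the median pregnancy margin was 0.85, and from 1.5 to 2 it was 0.72. The single regions at the edge thus show no trend across the rule.

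Brightness at the earlier stages went with a larger pregnancy margin. In the lowest quartile group of the 866, with mean ER- luminal values of 20.8 to 38.9, the median margin was 0.71 and 31.8% of 217 regions were at least 2-fold above both other types. In the highest, with 88.9 to 410.0, it was 1.15 and 62.2% of 217. At 4-fold no such order was seen, with 7, 4, 3 and 4 regions from the lowest to the highest group. Across the 866 regions the Spearman rank correlation between earlier ER- luminal level and pregnancy margin was 0.29, and between the smallest choice margin and the pregnancy margin 0.12. These points share libraries and depth.

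The ER- luminal values of the 866 regions hardly differed between puberty and adult, with a median log2 difference of 0.02 and an interquartile range of -0.28 to 0.39. At least 2-fold higher in adults were 29 regions (against 12.9% of all regions) and at least 2-fold lower 10 (against 9.44%), and 1 was at least 4-fold lower (against 1.35%). The requirement of a value of 20 and a wide gap at both stages limits such differences. In basal cells the adult values lay above those of puberty by a median of 0.33, and in ER+ luminal cells they lay below by a median of -0.39, against 0.03 over all regions in both. The order of the regions in pregnancy was closer to that in adults, with a Spearman rank correlation of 0.74, than to that at puberty, with 0.59. Between puberty and adult, which chose the regions, it was 0.82, and over all regions the 3 values were 0.86, 0.80 and 0.89. These correlations are a description across regions of the same libraries.

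Regions stably open in ER+ luminal or in basal cells, chosen by the same rule with the roles exchanged, numbered 5204 and 3387. At 4-fold, the ER+ luminal set kept its lead in pregnancy in 10.1% of its regions (against 1.50% of all regions) and the basal set in 28.8% (against 1.82%), compared with 2.08% and 0.304% for the ER- luminal set. The share in the set was thus 6.85 times that of all regions for the ER- luminal set, 6.78 times for the ER+ luminal and 15.9 times for the basal set. At 2-fold these ratios were 10.0, 4.97 and 7.71, so the order of the ratios depended on the fold. The 2-fold shares themselves were 44.3%, 44.7% and 74.6%, against 4.42%, 9.01% and 9.68% of all regions. At both folds the share was thus lowest in the ER- luminal set and highest in the basal set. Median pregnancy margins were 0.91, 0.87 and 1.55 in the same order. After quantile normalization the shares at 4-fold were 6.35%, 20.6% and 38.1%, against 0.786%, 2.60% and 2.68% of all regions. The ER+ luminal library was then left out of the pregnancy read-out, though not out of the choice. The basal set was at least 4-fold above ER- luminal cells in 48.5% of its regions (against 5.68%). The ER- luminal set was so above basal cells in 10.6% (against 3.71%).

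The stage differences of each cell type were also set side by side for the 3 sets. The choice of high own and low other values at the earlier stages favours lower own and higher other values in pregnancy in every set. In the ER+ luminal set the values of its own type were lower in pregnancy, with a median log2 difference of -1.57 from the earlier mean, while those of ER- luminal and basal cells were higher by 0.27 and 0.21. In the ER- luminal set the own type differed by -0.36, and in the basal set by -0.31. The other types were higher there, by 1.25 (basal) and 1.74 (ER+ luminal) for the ER- luminal set, and by 0.93 (ER- luminal) and 1.86 (ER+ luminal) for the basal set. Each of these medians comes from 1 library per cell type and stage, and the differences between sets were not tested.

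**Figure D5:**
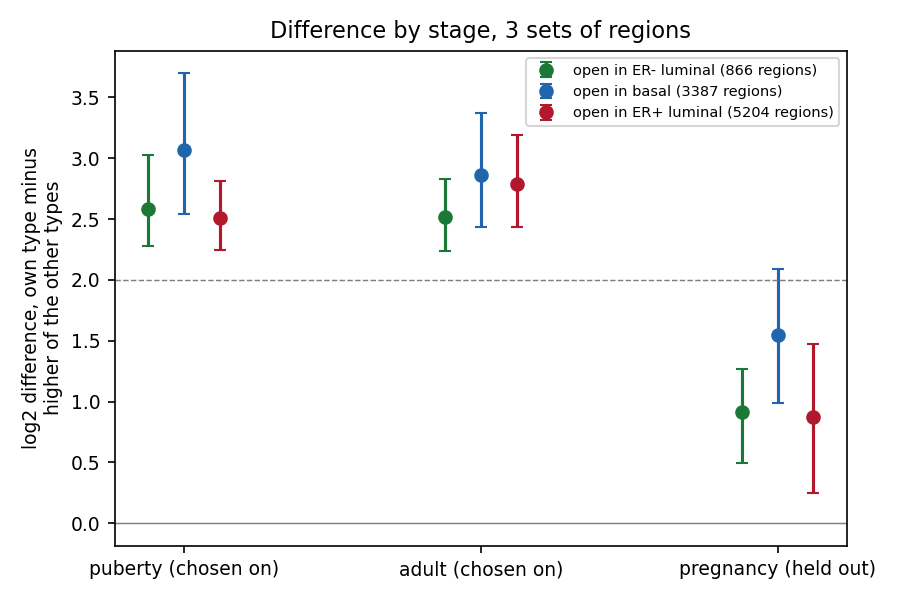
Median and interquartile range (bars) of the log2 difference between a set's own cell type and the higher of the other types, at each stage, for the 3 sets chosen at puberty and in adults; the dashed line marks 2, which is 4-fold. In pregnancy the medians are 0.91 for ER- luminal, 1.55 for basal and 0.87 for ER+ luminal regions.

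The 866 regions were spread over the whole range of running numbers, and some had neighbours of their kind. In 20 equal stretches of the numbering there were 33 to 60 of them, or 0.529% to 0.961% of the regions. Of the regions numbered directly next to one of the 866, 3.96% were themselves among them, against 0.694% of all regions, and within 5 numbers it was 2.06%. Whether running numbers follow the genome is not known here.

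The longest run, with steps of at most 5 numbers, had 6 regions: merged31617, merged31618, merged31620, merged31621, merged31622 and merged31625. Their ER- luminal values in pregnancy were 102, 13.7, 65.2, 37.9, 98.6 and 65.2, and their pregnancy margins 2.05, 0.95, 0.87, 1.46, 1.22 and 1.42. ER- luminal cells had the highest value in pregnancy in all 6 regions of the run. They did so in 89.6% of the 866 regions and in 33.0% of all regions, so the run does not stand out in this. This run was picked for its length, after the values were known.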

How the data were processed

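The authors deposited a table with 1 normalized signal value for every region in every library. Software named in the submitters' processing notes was MACS2 2.1.0.20151222, Picard, SAMtools and Bowtie2 2.2.6, with the build GRCm38 (mm10). Roles of the tools, the merging of peaks and any shift for the Tn5 cut are not given in the sources used here. As molecule the labels name total RNA and as library source transcriptomic, whereas protocol and title describe ATAC-seq, which was followed. Per the labels' protocols, 100000 sorted cells went into a library. The letters p and m in column names were read as plus and minus.

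Every library's values (100%) fell on whole multiples of a step of 0.526 to 2.20 units, with a tolerance of 0.02 reads. Taking a step as 1 read, libraries held 2186941 to 11328189 reads. A count of 0 allows up to 3 reads, or 1.58 to 6.60 units. No count model was fitted to these reads, because each group had 1 library and the puberty and adult libraries chose the regions; for the same reason no test was run. Counts stand beside those over all regions. Differences are of log2(value + 1), which understates those of dim regions. Intervals are exact Poisson, conditional binomial or Clopper-Pearson ones at 95%.

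Named regions are the 5 largest (pregnancy value at least 20) and 5 lowest pregnancy margins, the 3 brightest earlier, the 3 furthest above and below both earlier values, the 3 nearest to the median margin and the 2 on each side of the rule. The members and lists were chosen with earlier results of these data known. Steps, choice and counts were checked on simulated data. Alternatives were the pseudocount, scaling, depth, fold, minimum value, choice margin, stage of choice and a left-out pregnancy library. Those of pseudocount, scaling and depth changed the read-out only and kept the regions chosen on the deposited values. Python 3.11.15, numpy 2.4.6, pandas 2.3.3, SciPy 1.17.1 and matplotlib 3.10.9 were used.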

Additional observations from a re-analysis of the deposited data

Results flagged for a closer look

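In the 866 regions the cell types differed in opposite directions between pregnancy and the mean of the earlier stages, which is what marked these results. The median of the log2 difference was 1.62 lower in ER- luminal than in basal cells (-1.62) and 2.10 lower than in ER+ luminal cells (-2.10). Region by region, 559 of the 866 (64.5%) lay below their earlier mean in ER- luminal cells and above it in both other types, against 9.22% of all regions. The choice on high ER- luminal and low other values favours these directions. The differences were not tested, since each comes from 1 library per cell type and stage.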

How the results depend on the processing

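The number of regions at least 4-fold above both other types in pregnancy was 18, where 0.304% of all regions were. It was 24 with a pseudocount of 0.25 (against 0.453% of all regions) and 27 at equal depth (against 0.407%). It was 6 with a pseudocount of 4 (against 0.0392%), 55 with quantile normalization (against 0.786%) and 384 at a fold of 2 (against 4.42%). Against the same 0.304% of all regions, it was 21 of 1085 with no minimum value and 8 of 549 with a minimum value of 40. It was 0 of 47 with a choice margin of 3, 28 of 2102 chosen at puberty alone and 48 of 2433 chosen in adults alone. Without the ER+ luminal pregnancy library it was 92 (against 3.71%) and without the basal one 118 (against 3.07%), both chosen after seeing the data. A region then had to exceed only 1 other type, which is a looser criterion. The median pregnancy margin, 0.91, was 0.84 with a pseudocount of 4, 1.04 with quantile normalization, 1.01 with a minimum value of 40, 0.85 with none and 1.00 with a choice margin of 3. Chosen at puberty or in adults alone it was 0.70 and 0.74, and without the ER+ luminal or basal pregnancy library 1.14 and 1.23. The stage differences below and their alternative settings were added after seeing the data. In ER- luminal cells the median of -0.36 became -0.19 with quantile normalization, -0.43 with a minimum of 40, -0.45 with a choice margin of 3, -0.51 chosen at puberty and -0.049 chosen in adults. In basal cells the median of 1.25 became 1.35 and 1.00 with pseudocounts of 0.25 and 4, 1.17 with quantile normalization, 1.39 at equal depth, 1.14 and 1.37 with a minimum of 40 and none, 1.92 with a choice margin of 3 and 0.94 chosen at puberty. In ER+ luminal cells the median of 1.74 became 1.90 and 1.31 with the same pseudocounts, 1.46 with quantile normalization, 1.91 at equal depth, 2.29 with a choice margin of 3, and 1.42 and 1.85 chosen at puberty or in adults. No direction was reversed under these settings, and the cause of each change was not tested. Depth limits single regions: the median of the 866 regions rested on 30 ER- luminal, 9 basal and 11 ER+ luminal reads in pregnancy. No paired analysis was possible because each group had 1 library.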

Other observations

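Regions that fell short of the rule by their margin alone formed a gradient with the 866. Among regions with ER- luminal values of at least 20 at puberty and in adults, those with a smallest choice margin between 1 and 1.5 numbered 1748, and their median pregnancy margin was 0.58. Those between 0 and 1 numbered 8600, with a median pregnancy margin of 0.28, 9.34% at least 2-fold above both other types, and median pregnancy values of 37.4 in basal and 32.2 in ER+ luminal cells. Between 1.5 and 2 there were 1121, with a median of 0.72. Between 2 and 2.5 it was 0.85 over 604 regions, between 2.5 and 3 it was 1.00 over 215, and from 3 upward it was also 1.00, over 47. At least 2-fold above both other types in pregnancy were 23.7%, 31.0%, 42.1%, 49.8% and 48.9% of the groups from 1 upward. The basal values in pregnancy, with medians of 24.2, 22.0, 19.8, 22.0 and 19.8, hardly differed between those groups, and neither did the ER+ luminal ones, with 20.3, 18.6, 18.6, 20.3 and 22.0.

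In deposited units, the lowest values of the libraries were also higher in pregnancy. The 10th percentile over all regions was 4.40 in basal and 5.09 in ER+ luminal cells in pregnancy, against 3.17 and 1.58 at puberty and 2.37 and 1.71 in adults. In ER- luminal cells it was 3.03 in pregnancy, 2.15 at puberty and 2.23 in adults. These percentiles rest on few reads. In pregnancy 1 read was worth 1.52 to 2.20 units, against 0.526 to 0.855 in the other libraries. In ER+ luminal cells, 5.09 units in pregnancy and 1.58 at puberty were each the value of 3 reads. The part of the lowest values in the pregnancy values of the 866 regions was not tested.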
